A study of Mus musculus with 6 samples.

Results

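Genes for complexes II, III, IV and V of the mitochondrial respiratory chain, and for cytochrome c, were followed in mouse CD8+ T cells cultured with or without aminooxyacetic acid (AOA). Members were taken by gene symbol from the deposited count table: succinate dehydrogenase subunits and their assembly factors (Sdha to Sdhd and the Sdhaf genes), the Uqcr genes with Cyc1, Cycs, the Cox4 to Cox8 genes, and the Atp5 genes. This rule took 47 of the 11922 genes in the table, and all 47 passed the filter on low counts that left 11759 genes to test. Splenic CD8+ T cells came from 3 C57BL6/J mice and were activated with beads carrying anti-CD3 and anti-CD28. They were then expanded in interleukin-2 at 100 units per ml until day 7, with 0.25 mM AOA or with water as vehicle throughout. AOA blocks enzymes that use pyridoxal phosphate, the active form of vitamin B6, as cofactor. Cells of each mouse were cultured both ways, which makes 3 vehicle and 3 AOA libraries numbered by mouse, and the comparison asks how this block changes the transcripts of the T cell.

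Complex II passes electrons from succinate to ubiquinone, complex III passes them on to the small carrier cytochrome c, and complex IV, cytochrome c oxidase, hands them to oxygen. Complexes III and IV pump protons across the inner mitochondrial membrane, and complex V, the ATP synthase, uses the return of these protons to make ATP. Complex II is encoded in the nucleus alone, whereas complexes III, IV and V also hold subunits encoded in mitochondrial DNA, whose transcripts were not analysed here. Activated T cells enlarge this machinery as they grow, and memory CD8+ T cells are known for a high respiratory capacity.

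Transcripts of the respiratory complexes were mostly higher with AOA. Of the 47 genes, 30 (63.8%) rose at an adjusted p under 0.05 in the quasi-likelihood test of edgeR, while 26.2% of all tested genes rose. None of the 47 fell, while 26.8% of all tested genes fell, and the count of falls was also 0 at an unadjusted p under 0.05 in edgeR and at the adjusted threshold in DESeq2 and limma. The 30 rises lay between 1.38-fold and 3.09-fold. A called rise of at least 1 on the log2 scale was found for 15 of the 47 genes, beside 12.1% of all tested genes. The median log2 fold change over the 47 genes, taken as AOA over vehicle, was 0.62 (range -0.35 to 1.63), against -0.02 over all tested genes. For 32 genes (68.1%) the 3 AOA libraries all lay above the 3 vehicle libraries, compared with 31% of all tested genes, and for 0 they all lay below, compared with 31.1%. The remaining 15 genes overlapped between the groups. Levels are given as CPM, the read count of a gene scaled to the total of its library, with totals adjusted by the TMM method.

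The rise was present in each mouse but was uneven. The median log2 ratio of AOA to vehicle over the 47 genes was 1.05 in mouse 1, 0.50 in mouse 2 and 0.49 in mouse 3 (SD over mice 0.32). Higher levels with AOA were measured for 44 genes in mouse 1, 38 in mouse 2 and 37 in mouse 3, and for 34 genes in all 3 mice. The AOA library of mouse 1 was the highest of the 6 libraries for 41 of the 47 genes. That library stood apart beyond these genes, since genes under 1000 bases took 14.9% of its counts, against 10.3% and 10.4% in the other AOA libraries and between 11.2% and 11.3% in the vehicle libraries. The 47 genes deviated from the AOA group mean by a median log2 of 0.38 in that library, and other genes under 1000 bases by 0.34. When it was left out, 29 genes rose, 28 of them among the 30, while 25.1% of all tested genes rose, and the median log2 fold change was 0.49.

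**Figure D1:**
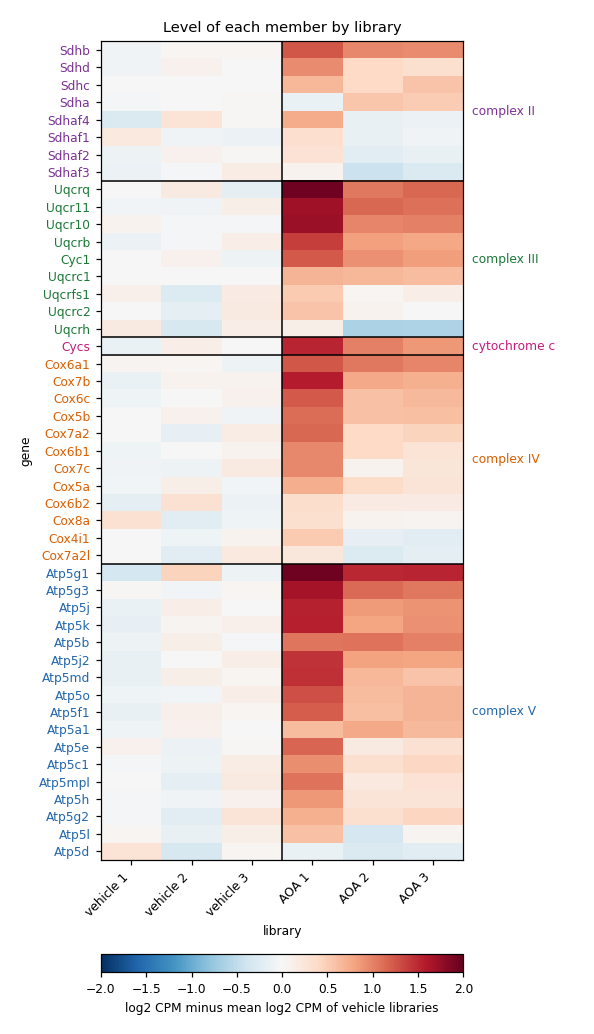
Each row is a gene, grouped by complex, and each column is a library; color gives log2 CPM minus the mean of the vehicle libraries, with red for higher and blue for lower. The column of AOA 1 is the darkest, and AOA 2 and AOA 3 are also red for most rows, while rows such as Uqcrh, Cox4i1, Cox7a2l and Atp5d are pale or blue in AOA 2 and AOA 3.

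Total counts ran from 12881962 to 18934869 with vehicle and from 18696114 to 21997078 with AOA. Cd3d, Cd3e and Cd3g, which encode chains of the T cell receptor complex, lay between 299 and 731 CPM in all libraries, and Cd8a and Cd8b1 rose (log2 fold changes 1.03 and 0.64). Summed levels of the 3 CD4 T cell markers ran from 154 to 205 CPM with vehicle and from 32.4 to 53.1 with AOA, and 2 of these markers, Cd4 and Zbtb7b, fell. Of 4 myeloid markers 2 were found, at a sum of 40.5 to 53.2 CPM with vehicle, nearly all from Itgam, and 0.873 to 3.28 with AOA. The 2 NK markers summed to between 20.1 and 114 CPM with vehicle, nearly all from Klrb1c, and to between 3.53 and 11.6 with AOA. Of the B cell markers, Ms4a1 and Cd79a were at 2.28 CPM or less in all libraries, and Cd79b rose (log2 fold change 1.01). None of the markers named here was at 0 in all libraries. The part of other cells in the results was not tested, and in bulk RNA a change in the share of a cell type and a change in RNA per cell cannot be told apart.

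Many nuclear genes of the respiratory chain have sites for the factors NRF1, GABP (an ETS family factor) and YY1 close to their start. RefSeq promoter sequences on GRCm38.p6, from 250 bases before to 50 bases after the start site, were matched to 38 of the 47 genes. The NRF1 letters GCGCANGCG were present on either strand in 15 of the 38 (39.5%). They were present in 16% of the 9438 tested genes with a promoter and in 7.03% of all 27025 genes with a promoter. The ETS letters CCGGAAG were present in 16 (42.1%), against 21.5% of these tested genes and 9.93% of all genes with a promoter. The YY1 letters AAGATGGCG were present in 2 (5.26%), against 3.8% and 1.64%. Among the raised genes 11 of 24 held the NRF1 letters and 9 held the ETS letters, and among those not called 4 of 14 held the NRF1 letters and 7 the ETS letters. The ETS and YY1 letters can share the bases AAG, and NRF1 matches on opposite strands can overlap each other. A match describes the letters only.

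The 250 bases before the start site are printed for 4 genes, 5′ to 3′ on the strand of the gene, with matches to the 3 motifs in capitals. Cycs and Cox6a1 rose and held NRF1 letters. Atp5g1 had the largest rise of the 47 genes and held no match in its window. The start site used for Atp5g1 lies inside the RefSeq bounds of the gene, whose outer end is at chr11:96075694. Uqcrh had the lowest log2 fold change of the 47 and held ETS letters near its start. Cycs lies on the minus strand with its window at chr6:50566570-50566819, Cox6a1 on the minus strand at chr5:115348959-115349208, Atp5g1 on the minus strand at chr11:96075632-96075881, and Uqcrh on the minus strand at chr4:116075071-116075320. In Cox6a1 the window held 3 NRF1 matches, of which a pair overlap as 1 palindrome, and 1 ETS match.
Cycs: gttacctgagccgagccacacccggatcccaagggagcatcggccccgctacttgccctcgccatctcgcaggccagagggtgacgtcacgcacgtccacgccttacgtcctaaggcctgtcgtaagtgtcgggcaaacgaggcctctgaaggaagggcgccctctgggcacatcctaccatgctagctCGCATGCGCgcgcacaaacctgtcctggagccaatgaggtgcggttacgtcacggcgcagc
Cox6a1: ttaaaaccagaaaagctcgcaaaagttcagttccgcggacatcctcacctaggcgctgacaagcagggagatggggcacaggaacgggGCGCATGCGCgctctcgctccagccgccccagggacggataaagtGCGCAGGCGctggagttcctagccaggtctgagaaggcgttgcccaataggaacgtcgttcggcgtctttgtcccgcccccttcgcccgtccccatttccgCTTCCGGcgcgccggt
Atp5g1: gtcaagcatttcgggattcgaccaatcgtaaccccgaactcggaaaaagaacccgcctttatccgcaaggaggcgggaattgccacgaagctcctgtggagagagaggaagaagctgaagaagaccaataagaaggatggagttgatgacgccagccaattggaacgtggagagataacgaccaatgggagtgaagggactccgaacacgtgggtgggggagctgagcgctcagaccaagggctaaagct
Uqcrh: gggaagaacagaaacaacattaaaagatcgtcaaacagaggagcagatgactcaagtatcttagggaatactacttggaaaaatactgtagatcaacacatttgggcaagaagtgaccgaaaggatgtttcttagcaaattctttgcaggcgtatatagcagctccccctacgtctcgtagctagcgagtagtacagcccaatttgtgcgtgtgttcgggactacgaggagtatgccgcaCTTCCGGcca

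In complex II the 3 smaller subunits rose, and the flavoprotein and the assembly factors were not called. Of its 8 genes, 3 (37.5%) rose and 0 fell, a share not far from the 26.2% of all tested genes and the 29.8% of other genes of the members' lengths that rose, with a median log2 fold change of 0.27. Sdhb encodes the iron-sulfur subunit that takes electrons from the flavoprotein. Its level in libraries 1, 2 and 3 was 88.8, 96.3 and 95.9 CPM with vehicle and 220, 181 and 181 CPM with AOA. All AOA libraries were clear of the vehicle range, with a log2 fold change of 1.05 (SE 0.14, adjusted p = 0.0002777). Sdhd, a membrane anchor that helps to bind ubiquinone, was at 133, 148 and 139 CPM with vehicle and 269, 183 and 174 CPM with AOA. It had the highest level per length of complex II in the vehicle libraries, and its rise of 0.58 on the log2 scale (SE 0.18, adjusted p = 0.02306) had an adjusted p of 0.06911 when vehicle library 1 was left out and 0.05495 when vehicle library 3 was. Sdhc, the other anchor, rose by a log2 fold change of 0.55 (SE 0.12, adjusted p = 0.005043).

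Sdha, the flavoprotein that oxidises succinate, was at 245, 247 and 252 CPM with vehicle and at 227, 363 and 353 CPM with AOA. The AOA library of mouse 1 lay below all vehicle libraries for this gene while the other AOA libraries lay above them. With all 6 libraries the log2 fold change was 0.34 (SE 0.19, adjusted p = 0.1501), and without AOA 1 it was 0.53 with an adjusted p of 0.005235. Sdha and Sdhb, which bind each other in equal number, were at nearly equal levels per length with vehicle. The ratio of Sdhb to Sdha in CPM per kilobase was 0.967, 1.04 and 1.01 with vehicle and 2.59, 1.33 and 1.36 with AOA. This ratio was picked after its values were seen and was given no test. The 4 assembly factors, Sdhaf1, Sdhaf2, Sdhaf3 and Sdhaf4, which help Sdha and Sdhb to mature, had log2 fold changes of 0.05, -0.01, -0.20 and 0.20, and none was called. All 4 overlapped between the groups, and their levels per length (7.21 to 18.1 CPM per kilobase as group means) were below those of the 4 subunits (53.7 to 181 CPM per kilobase).

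**Figure D2:**
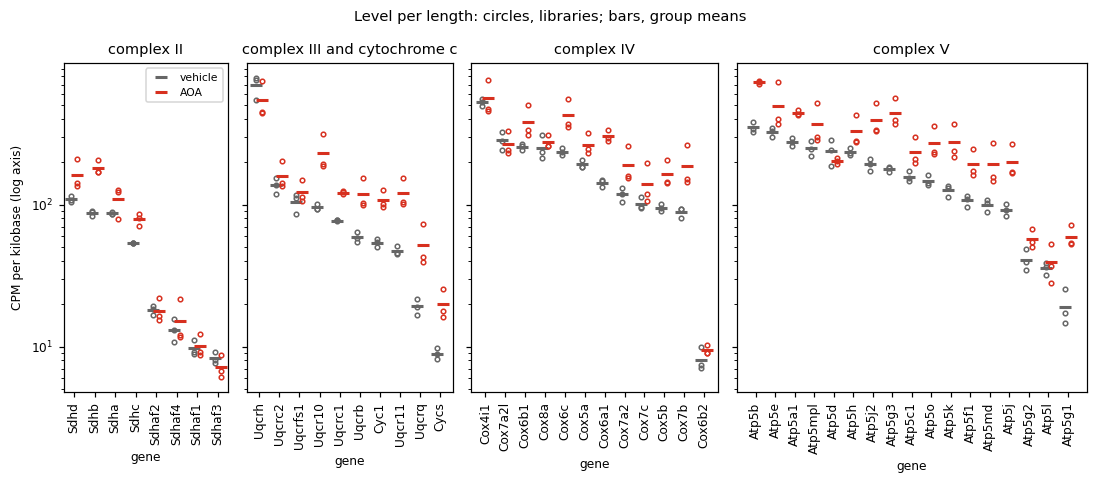
Level per length of each gene in CPM per kilobase on a log axis; grey marks vehicle, red marks AOA, circles are the 3 libraries of a group and bars are their mean. Within complex III the genes at the low end with vehicle, such as Uqcrq and Uqcr11, moved up most, while Uqcrh at the top did not.

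Complex III held strong rises beside the lowest log2 fold change of the 47 genes. Of 9 genes, 6 (66.7%) rose and 0 fell, beside 26.2% and 26.8% of all tested genes. The median log2 fold change was 1.01. Cyc1 encodes cytochrome c1, the heme protein that delivers electrons to cytochrome c. It was at 64.8, 68.1 and 60 CPM with vehicle and 151, 122 and 115 CPM with AOA, with no overlap. Its log2 fold change was 1.01 (SE 0.14, adjusted p = 0.0004762). The other redox subunit of nuclear origin, the Rieske iron-sulfur protein Uqcrfs1, had a log2 fold change of 0.23 and was not called. Core protein 1, Uqcrc1, rose (0.66, SE 0.12, adjusted p = 0.001527), and core protein 2, Uqcrc2, had a value of 0.23 and was not called.

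The small subunits around this core rose in 4 of 5 cases. Uqcrq showed the largest change of complex III. Its levels of 29.2, 33.1 and 25.6 CPM with vehicle became 112, 60.5 and 64.8 CPM with AOA. Each AOA library was well above every vehicle library, and AOA 1 was far above the other 2 (log2 fold change 1.43, SE 0.24, adjusted p = 0.001068, and 1.10 without AOA 1). Uqcr11 (1.34, SE 0.18), Uqcr10 (1.28, SE 0.20) and Uqcrb (1.02, SE 0.19) rose as well.

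Uqcrh, the acidic hinge protein that lies next to cytochrome c1, went the other way in its values. It was at 425, 300 and 410 CPM with vehicle and 407, 242 and 243 CPM with AOA. The groups overlapped through AOA 1 and vehicle 2, and AOA was lower in 3 of 3 mice. The log2 fold change was -0.35 (SE 0.23, adjusted p = 0.2378). Without AOA 1 it fell by 0.64 on the log2 scale with an adjusted p of 0.02468. With the trend of log2 counts on gene length removed it fell by 0.62 with an adjusted p of 0.00631. It was the 1 gene of the 47 lowered in those fits. Uqcrh also had the highest level per length of complex III in both groups, at 693 CPM per kilobase with vehicle and 545 with AOA. Between the highest and the lowest of the 9 genes, Uqcrh and Uqcrq, the level per length differed 36.1-fold with vehicle and 10.5-fold with AOA. The SD of log2 level per length over the 9 genes was 1.26 to 1.48 with vehicle and 0.905 to 0.954 with AOA. The fold between highest and lowest was 2.03 with vehicle and 2.3 with AOA over the 4 subunits of complex II. It was 18.3 and 18.5 over complex V, and 5.91 and 3.97 over complex IV without Cox6b2 and Cox7a2l. These differences in spread were not tested. The sum over complex III was 1286 ± 156 CPM per kilobase with vehicle and 1580 ± 398 with AOA (SD, n = 3), a ratio of 1.23, and in mouse 3 the ratio was 0.98.

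Cycs, the soluble electron carrier between complexes III and IV that also triggers apoptosis once it leaves mitochondria, rose. It was at 24.9, 30.0 and 27.0 CPM with vehicle and 78.2, 54.8 and 49.8 CPM with AOA, without overlap and highest in AOA 1. The log2 fold change was 1.16 (SE 0.19, adjusted p = 0.0009183), and 0.94 without AOA 1. Per length it stood at 8.92 CPM per kilobase with vehicle and 19.9 with AOA. Its promoter window is among those printed above.

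**Figure D3:**
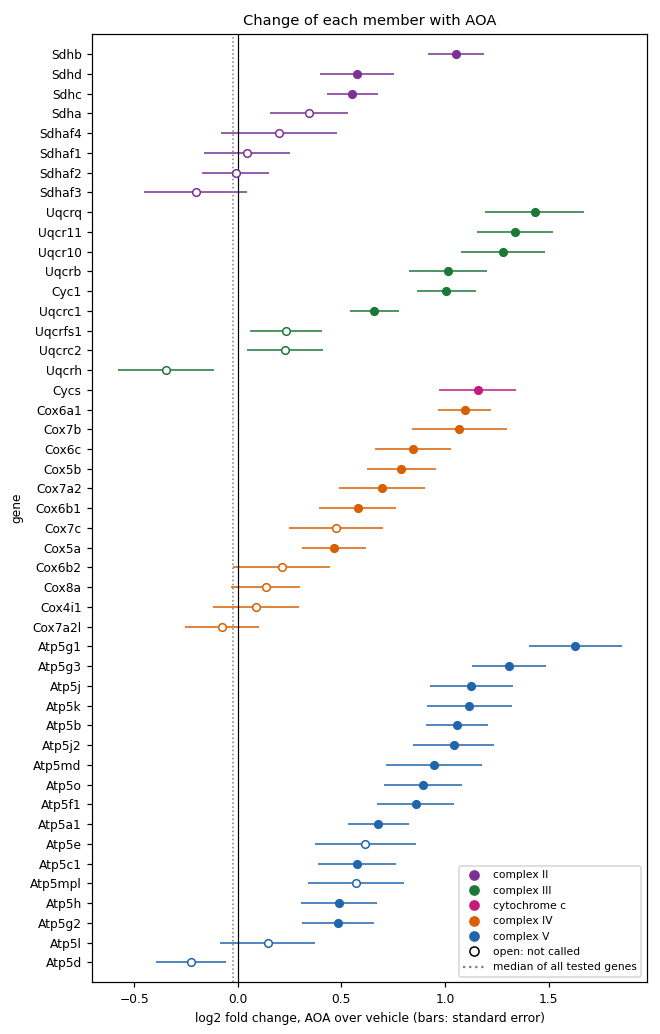
Log2 fold change of AOA over vehicle for each gene, with its standard error as bar; filled symbols rose at an adjusted p under 0.05 and open symbols were not called. The dotted line is the median of all tested genes, -0.02, and the values run from -0.35 for Uqcrh to 1.63 for Atp5g1.

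Complex IV rose in part. Of its 12 genes, 7 (58.3%) rose and 0 fell, beside 26.2% and 26.8% of all tested genes. The median log2 fold change was 0.53. Cox6a1, a subunit on the outer side of the complex, had the largest change of complex IV and the smallest adjusted p of the 47 genes. Levels of 78.8, 77.9 and 70.9 CPM with vehicle stood against 178, 158 and 150 CPM with AOA. The groups were far apart and the AOA libraries were close to each other (log2 fold change 1.10, SE 0.13, adjusted p = 0.0001788, and 1.02 without AOA 1). Cox7b (1.07), Cox6c (0.85), Cox5b (0.79), Cox6b1 (0.58) and Cox5a (0.46) rose too. Cox7a2, the subunit 7A form of most tissues, was at 89.3, 79.2 and 98.5 CPM with vehicle and 196, 117 and 121 CPM with AOA and rose (0.70, SE 0.21, adjusted p = 0.01902).

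Cox4i1, the large regulatory subunit with the highest level per length of the complex, was at 406, 379 and 422 CPM with vehicle and 577, 357 and 348 CPM with AOA. AOA 1 was the highest library and the other AOA libraries were the lowest. The log2 fold change of 0.09 (SE 0.21, adjusted p = 0.7464) turned to -0.19 without AOA 1. Its level per length, 527 CPM per kilobase with vehicle and 560 with AOA, stayed at the top of complex IV. The ratio of Cox6a1 to Cox4i1 in CPM per kilobase was 0.271 ± 0.0277 with vehicle and 0.565 ± 0.106 with AOA (SD, n = 3), again a ratio chosen after its values were seen and not tested.

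Cox8a was at 167, 116 and 128 CPM with vehicle and 169, 141 and 140 CPM with AOA, and the groups overlapped (log2 fold change 0.13, SE 0.17). Cox7a2l, the relative of subunit 7A that links complexes III and IV into supercomplexes, was at 325, 280 and 371 CPM with vehicle and 377, 267 and 281 CPM with AOA. It overlapped between groups, with a log2 fold change of -0.08 (SE 0.18, adjusted p = 0.7416). Cox7c had a value of 0.47 and was not called. Cox6b2, known as the testis form of subunit 6B, was low, at 4.37, 6.09 and 4.56 CPM with vehicle and 6.30, 5.55 and 5.55 CPM with AOA. Of the subunit 6B signal per length, Cox6b1, at 122, 130 and 135 CPM with vehicle and 252, 170 and 156 CPM with AOA, made up 96.9% ± 0.541 with vehicle and 97.5% ± 0.427 with AOA (SD, n = 3).

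Most genes of complex V, the ATP synthase, rose. Of its 17 genes, 13 (76.5%) rose and 0 fell, beside 26.2% and 26.8% of all tested genes. The median log2 fold change was 0.86. For 15 of the 17 genes the AOA libraries all lay above the vehicle libraries, compared with 31% of all tested genes. The enzyme has a soluble F1 head, a membrane ring of c subunits that turns with proton flow, a peripheral stalk that holds the head still, and small membrane subunits that help to shape the inner membrane.

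The c subunit genes encode the same mature c subunit behind different import sequences, and all 3 of them rose. Atp5g1 had the largest change of the 47 genes. It was at 12.7, 22.1 and 15.1 CPM with vehicle and 62.1, 46.0 and 46.4 CPM with AOA, with a wide gap between groups (log2 fold change 1.63, SE 0.22, adjusted p = 0.0003855). Atp5g3 was at 131, 124 and 133 CPM with vehicle and 409, 284 and 269 CPM with AOA, also without overlap (1.31, SE 0.18, adjusted p = 0.0003794). Atp5g2 changed less, from 25.6, 22.6 and 31.4 CPM to 43.3, 32.8 and 35.3 CPM (0.48, SE 0.17, adjusted p = 0.041). Its groups did not overlap, but the lowest AOA value was close to the highest vehicle value, and the adjusted p was 0.1149 without AOA 1, 0.09274 without vehicle 1, 0.06348 without vehicle 2 and 0.07678 without AOA 3. By level per length, Atp5g3 made up 74.8% ± 1.88 of the c subunit transcripts with vehicle and 79.0% ± 1.42 with AOA, Atp5g2 made up 17.1% ± 2.22 and 10.4% ± 0.938, and Atp5g1 8.06% ± 2.57 and 10.7% ± 0.485 (SD, n = 3). For Atp5g2 all AOA shares were below all vehicle shares, whereas those of Atp5g1 overlapped. Atp5g1 and Atp5g2 have pseudogene copies, so their counts of uniquely mapped reads are uncertain as levels.

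Within the F1 head the alpha, beta and gamma subunits rose. Atp5b, the catalytic beta subunit, had the highest level per length of complex V. It was at 613, 714 and 643 CPM with vehicle and 1379, 1397 and 1324 CPM with AOA. The AOA libraries were close together, and AOA 1 was not above the rest (log2 fold change 1.06, SE 0.15, adjusted p = 0.0004673, and 1.05 without AOA 1). Atp5a1, the alpha subunit, rose by a log2 fold change of 0.68 (SE 0.15, adjusted p = 0.004004), and Atp5c1, the gamma subunit of the central stalk, by 0.58 (SE 0.19, adjusted p = 0.02757). Alpha and beta occur in equal number in the head, and the ratio of Atp5b to Atp5a1 in CPM per kilobase went from 1.25, 1.29 and 1.24 with vehicle to 1.70, 1.59 and 1.63 with AOA, values picked after they were seen and not tested.

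The small subunits of the head were not called. Atp5d, the delta subunit, was at 279, 184 and 237 CPM with vehicle and 210, 189 and 199 CPM with AOA, with overlap and a log2 fold change of -0.22 (SE 0.17, adjusted p = 0.2843). Atp5e, the epsilon subunit, had a log2 fold change of 0.62 (adjusted p = 0.05773), with AOA libraries all above vehicle libraries. With the mouse as a replicate block its adjusted p was 0.0296, and that of the membrane subunit Atp5mpl moved from 0.06259 to 0.03988, so that 32 of the 47 genes rose in the blocked fit.

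All 4 genes of the peripheral stalk rose, with a median log2 fold change of 0.88. These were Atp5j for subunit F6 (1.13, SE 0.20), Atp5o for the OSCP subunit that joins stalk and head (0.89, SE 0.19), Atp5f1 for subunit b (0.86, SE 0.19) and Atp5h for subunit d (0.49, SE 0.18, adjusted p = 0.04691). Atp5h had the weakest call, with an adjusted p between 0.06193 and 0.104 when AOA 1 or any 1 vehicle library was left out. Of 5 small membrane subunits 3 rose, Atp5k (subunit e, 1.12), Atp5j2 (subunit f, 1.04) and Atp5md (0.95), and Atp5l (subunit g, 0.14) and Atp5mpl (0.57) were not called. Summed over the 17 genes, complex V transcripts per length came to 2867 ± 106 CPM per kilobase with vehicle and 4933 ± 1049 with AOA (SD, n = 3), a ratio of 1.72 that was 2.19 in mouse 1, 1.54 in mouse 2 and 1.45 in mouse 3. The same ratio was 1.58 for the 4 subunits of complex II and 1.38 for complex IV.

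Near-identical sequence limits some of these levels. Of 46 genes matched to GENCODE vM21 transcripts, 8 had another gene with at least 95% identity over at least 50% of the transcript. These were Sdhaf1, Uqcrb, Cox7c, Atp5g1, Atp5g2, Atp5l, Atp5h and Atp5o, and 6 of them had pseudogene copies, with 8 such copies for Atp5l. For these 8 genes the counts of uniquely mapped reads may be split or lost.

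Respiratory chain genes are short, and gene length moved with the libraries, so the 47 genes were set beside all other tested genes of the same length. Their median length was 754 bases (292 to 3097). Under 500 bases 5 of 8 members rose, against 22.4% of the other genes. From 500 to below 750 bases 9 of 15 rose, against 34.2%, and from 750 to below 1000 bases 4 of 7 rose, against 30.2%. Above that, 5 of 7 rose from 1000 to below 1500 bases, against 33.1%, 5 of 6 from 1500 to below 2000 bases, against 28.2%, and 2 of 4 at 2000 bases or more, against 24.3%. Members rose in a larger share than other genes in each of the 6 classes. Weighted to the lengths of the 47 genes, 29.8% of other genes rose and 20.1% fell. With the length trend removed 27 of the 47 rose, Uqcrh fell, and the median log2 fold change was 0.45, while 27.3% of other genes weighted to the same lengths rose and 28.1% fell. The part of RNA quality or library preparation in the length pattern of AOA 1 was not tested.

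**Figure D4:**
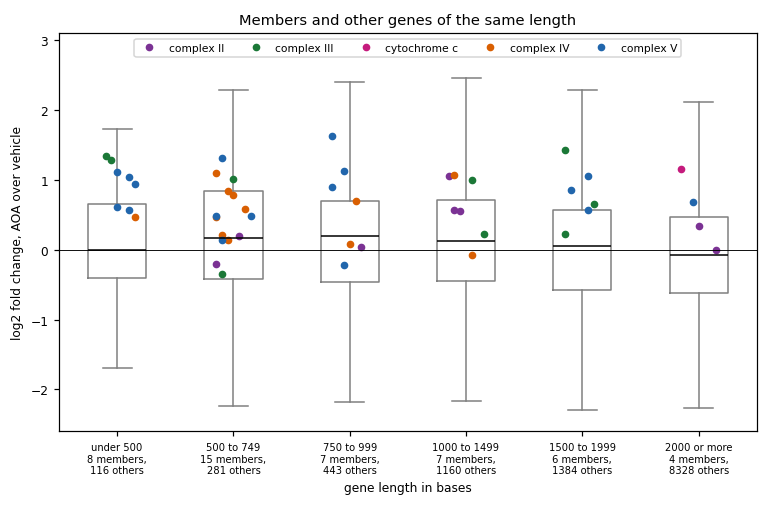
Log2 fold change of AOA over vehicle by gene length in bases; boxes show the quartiles and median of the other tested genes in each class, whiskers their range without outlying genes, and colored points the genes of each complex. Most points lie above the median line of the other genes in their class, and the lowest point, Uqcrh at -0.35, lies in the class from 500 to below 750 bases.

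Other gene families gave a scale for these counts, beside the 26.2% of all tested genes that rose and the 26.8% that fell. Among 45 genes with an Nduf name, most of them subunits or assembly factors of complex I, 36 rose and 1 fell, with a median log2 fold change of 0.74. Of 78 genes for mitochondrial ribosomal proteins 51 rose and 1 fell (median 0.69). The table held 80 genes named as cytosolic ribosomal proteins or their paralogs (Rpl or Rps with a number, without the Rps6k kinases, Rps19bp1 and pseudogenes), also mostly short (median 729.5 bases), and of the 78 tested 4 rose and 1 fell, with a median log2 fold change of -0.05. The differences between these families were not tested.

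Genes that build or regulate the complexes moved less evenly. Of 4 further nuclear genes of the enzymes, 3 rose, beside 26.2% of all tested genes: Ndufa4, now counted with complex IV (0.99, SE 0.28, adjusted p = 0.01542), Atpif1, the inhibitor of ATP hydrolysis by complex V (0.96, SE 0.19, adjusted p = 0.002391), and Higd1a (0.56, SE 0.21, adjusted p = 0.0453). Without AOA 1 only 1 of the 4 was called. Higd2a had a value of -0.13 and was not called. Of 33 assembly factors found, 12 (36.4%) rose and 1 (3.03%) fell, beside 26.2% and 26.8% of all tested genes, with a median log2 fold change of 0.43. The strongest rises were Uqcc2 for complex III (1.35, SE 0.25, adjusted p = 0.001896), Lrpprc, which stabilises mitochondrial transcripts (1.28, SE 0.17, adjusted p = 0.0003583), and Fmc1 for complex V (1.28, SE 0.30, adjusted p = 0.005955).

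Surf1, a factor needed early in the assembly of complex IV, was the assembly factor that fell. It was at 120, 91.2 and 117 CPM with vehicle and 54.7, 48.5 and 53.9 CPM with AOA. The groups did not overlap, and the log2 fold change was -1.07 (SE 0.15, adjusted p = 0.0003838). Without AOA 1, or with the length trend removed, 4 assembly factors fell.

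Of 15 transcriptional and mitochondrial DNA factors found, 4 rose and 2 fell. Pprc1, a coactivator related to PGC-1 (1.37, SE 0.30), Tfam, which packages and transcribes mitochondrial DNA (0.85, SE 0.15), Hcfc1 (0.83, SE 0.19) and the mitochondrial RNA polymerase Polrmt (0.60, SE 0.14) rose. Polg2, the accessory subunit of the mitochondrial DNA polymerase (-0.80, SE 0.23), and the nuclear receptor Esrra (-0.75, SE 0.17) fell. Only 1 factor was called lower when vehicle 1, vehicle 3, AOA 2 or AOA 3 was left out. The factors whose letters were searched in the promoters were not called, with log2 fold changes of 0.25 for Nrf1, -0.22 for Gabpa and -0.19 for Yy1. With 4 rises in 15, the share of 26.7% was near the 26.2% of all tested genes.

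**Figure D5:**
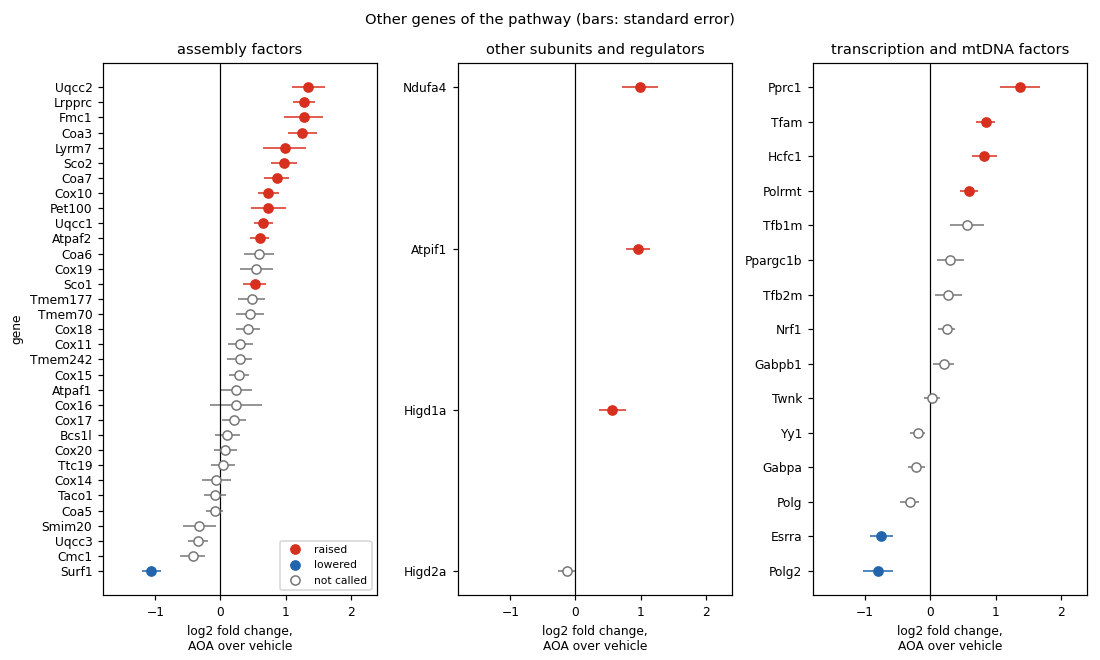
Log2 fold change of AOA over vehicle, with standard error bars, for assembly factors (left), other nuclear subunits and regulators (middle) and transcription and mitochondrial DNA factors (right); red symbols rose, blue symbols fell and open symbols were not called. Surf1 at -1.07 is the lowest of the assembly factors and Uqcc2 at 1.35 the highest.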

How the data were processed

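CD8+ T cell RNA was sequenced from 3 vehicle and 3 AOA cultures. The study describes stranded messenger RNA libraries, paired reads of 75 bases, alignment with STAR and counting of uniquely mapped reads, and the submitters' processing notes name bcl2fastq, STAR, featureCounts, DESeq2 and mm10. The authors deposited raw counts per gene with Entrez number, symbol and length. The versions of the aligner and counter, the annotation and filters on genes could not be taken from the sources used here.

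These counts went into edgeR 4.0.16 in R 4.3.3: filterByExpr (minimum count 10), TMM, the robust quasi-likelihood test across 11759 genes and Benjamini-Hochberg adjustment with a threshold of 0.05. Genes past it are called; SE is the log2 fold change over the root of the F statistic. The mouse entered only an alternative fit. Log2 ratios within a mouse used CPM plus 0.5. Levels were compared between genes as CPM per kilobase of the deposited length. With 3 samples a group, an exact permutation test cannot give a p below 0.1, so p-values are those of the model across genes. Alternatives were voom of limma 3.58.1, DESeq2 1.42.0, scaling by median-of-ratios or by total counts, testing all genes, testing those at 10 CPM or more in 3 libraries, a replicate block for the mouse, removal of the trend of log2 counts on gene length (lowess span 0.3) with and without the block, each library left out, a log2 fold change of at least 1, TPM and length quintiles. Leaving out libraries for summed levels, and refitting for the shares of genes of like length, were chosen after seeing the data. Scripts were tested on simulated data.

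Same-numbered libraries come from the same mouse by the labels, and their deviations from group means correlated across genes with r of 0.0898, 0.192 and 0.195. Replicates differed by more than sampling noise (chi-square per gene 10.2 to 72.3).

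The members, gene lists and comparisons were chosen with earlier results of these data known. Values in every library are given for the called gene with the largest change in each complex, the gene with the highest level per length of each complex, Cycs, Cyc1, Sdha, and isoform sets; of each list, up to 3 called genes per direction. Polrmt, Nrf1, Gabpa, Yy1, Higd2a and other genes named beyond this rule were chosen after their values were seen. Motifs and near-identical copies were searched with Python 3.11.15 and blastn 2.17.0. The result of 1 further marker gene is not reported here.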

Additional observations from a re-analysis of the deposited data

How the results depend on the processing

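Directions of the members held under median-of-ratios size factors, total counts, limma voom, the filter of at least 10 CPM in 3 libraries (which kept 43 of the 47) and the replicate block, whereas Twnk, no member, changed sign at that CPM filter. In the paired fit, with the mouse number as replicate block, 32 genes rose and 0 fell, with a median log2 fold change of 0.55; it gained Atp5e and Atp5mpl, lost none of the 30, and moved no count of calls by over 1.5 times. Over all fits at the threshold, between 24 and 33 of the 47 rose, and 24 of the 30 were called in every fit. The other 6 (Atp5c1, Atp5g2, Atp5h, Cox5a, Cox6b1 and Sdhd) were all lost without vehicle 1, which left 24. Of these, Atp5g2 and Atp5h were also lost without vehicle 2 and without AOA 1, Atp5h, Cox5a and Sdhd without vehicle 3, Atp5g2 without AOA 3, Atp5h with limma and with the CPM filter, Atp5g2, Atp5h and Cox5a with the length trend removed, and Cox6b1 with the trend removed and the block. A log2 fold change of at least 1 left 15 members, 1 in complex II, 2 in complex IV, 6 in complex V, 0 further nuclear subunits, 4 assembly factors, and 1 raised and 0 lowered transcriptional factors. At that size 12.1% of all tested genes rose and 14.1% fell. With the length trend removed, with or without the replicate block, 1 member fell (complex III, Uqcrh), 1 further nuclear gene fell (Higd2a) and 4 assembly factors fell. With 1 library left out, members lowered ranged from 0 to 1, as did complex III; further nuclear genes raised from 1 (without vehicle 1 or AOA 1) to 3; assembly factors lowered from 1 to 4 (2 without vehicle 2, 4 without AOA 1); and transcriptional factors lowered from 1 (without vehicle 1, vehicle 3, AOA 2 or AOA 3) to 2. The causes were not tested.

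Log2 fold changes that changed sign were near 0 and not called in the reported fit. With the length trend removed, without and with the block, they became -0.0782 and -0.0723 for Sdhaf4, -0.0195 and -0.0037 for Cox6b2, -0.16 and -0.16 for Sdhaf1, -0.16 and -0.17 for Cox4i1, -0.14 and -0.14 for Atp5l, -0.10 and -0.0904 for Cox8a, -0.0707 and -0.0716 for Cox17, and -0.20 and -0.20 for Cox20. Sdhaf2 became 3e-04 with DESeq2 and 0.0199 without a low-count filter, and Twnk -0.0098 with at least 10 CPM. With 1 library left out the ranges were -0.15 to 0.37 for Sdhaf4, -0.12 to 0.17 for Sdhaf1, -0.19 to 0.22 for Cox4i1, -0.13 to 0.34 for Atp5l, -0.245 to 0.0533 for Cox7a2l, -0.18 to 0.092 for Sdhaf2, -0.0149 to 0.26 for Bcs1l, -0.0447 to 0.21 for Ttc19, -0.32 to 0.0931 for Cox14, -0.24 to 0.51 for Cox16, -0.0274 to 0.34 for Cox17, -0.13 to 0.18 for Cox20, -0.14 to 0.0194 for Taco1 and -0.0148 to 0.0709 for Twnk. With 3 libraries a group, small changes of genes at a few CPM, such as Sdhaf3 and Cox6b2, are not resolved at this depth.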
